A study of Mus musculus with 20 samples.

Results

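The PRC1 subunit genes described here are *Cbx2*, *Cbx7*, *Cbx8*, *Pcgf2*, *Bmi1*, *Ring1*, *Rnf2*, *Phc1* and *Phc2*, 9 of the 43280 gene symbols in the count files, chosen by symbol. Polycomb repressive complex 1 (PRC1) places a single ubiquitin on histone H2A (the mark H2AK119ub) and compacts chromatin. In its canonical form it is brought to silenced developmental genes by CBX proteins that bind H3K27me3, the mark written by PRC2, so that the complexes act one after the other. A canonical PRC1 holds 1 RING E3 ligase (RING1 or RNF2), 1 PCGF partner of the ligase (PCGF2 or BMI1), 1 CBX reader (such as CBX2, CBX7 or CBX8) and 1 PHC protein (such as PHC1 or PHC2), and variant PRC1 complexes carry other PCGF proteins with RYBP or YAF2 in place of CBX.

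The study asked what PRC2 does in gut mesenchyme by deleting *Eed*, a core PRC2 gene. At E13.5, control mice carried *Bapx1*-cre and the *Rosa26*mTmG reporter, and *Eed* KO mice carried *Eed* fl/fl with the same Cre and reporter. The labels give the strain as C57BL/6, while the study's mouse lines include mixed backgrounds. GFP+ cells were sorted from stomach and intestine, so that both genotypes carry the Cre and the sort was for cells in which *Bapx1* had driven it. Adult control and *Eed* KO cells were GFP+ cells sorted from small intestine of mice with a tamoxifen-inducible *Pdgfrβ* Cre-ERT2 and the same reporter, with or without *Eed* fl/fl, the labels calling the controls WT. The paper's schedule for adult mice was daily tamoxifen by injection, with dissection 2 days after the last dose. Each of the 6 groups had 2 RNA-seq libraries, and each embryonic group also had 1 list of ATAC-seq peaks made from pooled replicates. With 2 libraries against 2, a two-sided exact permutation test of a single gene cannot give a p below 0.333, so that the tests below are those of edgeR, which share the estimate of spread across genes.

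Embryonic libraries held 30236159 to 39606157 counts on genes and adult libraries 11404712 to 15903642, so that 3 counts in a library corresponded to at most 0.0992 CPM (counts scaled to library size by TMM) and 0.263 CPM. *Eed* itself fell in both embryonic organs, from 40.1 and 41.5 to 11.5 and 7.40 CPM in the stomach (log2 fold change -2.11, SE 0.21, adjusted p = 0.00175 by edgeR) and from 38.1 and 40.1 to 10.7 and 8.59 CPM in the intestine (-2.02, SE 0.21, adjusted p = 0.00464). In the adult libraries labelled *Eed* KO it was 25.7 and 25.0 CPM, against 29.7 and 33.4 CPM in the controls. It did not pass the test (-0.32, SE 0.21, adjusted p = 0.317 by edgeR). In TPM, scaled by gene length to a common library total without TMM, the fall was larger. *Eed* was at 34.8 and 38.1 TPM in the controls and 21.2 and 18.6 TPM in *Eed* KO. The study also measured the efficiency of *Eed* deletion in isolated adult cells, which is not repeated here. Reads of *Eed* and of *Gm26529*, which share 235 exon bases on opposite strands, cannot be told apart in these unstranded libraries. The 8 mesenchyme markers summed to 13026 to 24503 CPM over the embryonic libraries, and the 6 macrophage and leukocyte markers found in the files to at most 13.2 CPM. Other lists were higher, with epithelium at 66.5 to 121 CPM, enteric neural crest at 54.8 to 207 CPM and mesothelium at 292 to 505 CPM. The neural crest markers summed to 194 to 207 CPM in control and 95.6 to 168 CPM in *Eed* KO intestine. In the stomach they summed to 54.8 to 65.5 CPM in control and 64.2 to 72.8 CPM in *Eed* KO. In bulk samples, fewer cells of a type and less RNA per cell cannot be told apart.

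The promoters of *Bmi1*, *Pcgf2* and *Cbx8* are printed because these are the members whose RNA passed a test after *Eed* loss. Each is the RefSeq window of 300 bases in GRCm38.p6, from 250 bases before to 50 after the start, 5′ to 3′ on the gene's strand, with the E-box CACGTG in capitals. They lie at chr2:18676768-18677067 on the plus strand (*Bmi1*), chr11:97699599-97699898 on the minus strand (*Pcgf2*) and chr11:119040864-119041163 on the minus strand (*Cbx8*).
Bmi1: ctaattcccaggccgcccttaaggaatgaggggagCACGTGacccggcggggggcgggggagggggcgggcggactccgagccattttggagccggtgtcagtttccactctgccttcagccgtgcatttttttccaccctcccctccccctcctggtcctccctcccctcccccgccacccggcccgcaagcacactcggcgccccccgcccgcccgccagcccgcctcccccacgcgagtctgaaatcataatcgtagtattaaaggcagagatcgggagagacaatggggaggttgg
Pcgf2: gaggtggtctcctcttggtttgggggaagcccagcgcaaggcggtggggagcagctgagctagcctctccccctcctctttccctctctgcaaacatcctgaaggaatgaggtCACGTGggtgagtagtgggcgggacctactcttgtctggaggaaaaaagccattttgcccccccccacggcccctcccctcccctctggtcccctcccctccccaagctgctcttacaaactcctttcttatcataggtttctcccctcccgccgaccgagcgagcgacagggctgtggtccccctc
Cbx8: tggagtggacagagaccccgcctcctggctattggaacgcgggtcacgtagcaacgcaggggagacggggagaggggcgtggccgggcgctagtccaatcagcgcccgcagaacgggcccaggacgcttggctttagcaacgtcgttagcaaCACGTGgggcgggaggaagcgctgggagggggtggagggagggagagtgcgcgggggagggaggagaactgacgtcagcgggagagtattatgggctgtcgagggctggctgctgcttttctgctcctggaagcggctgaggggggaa

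RefSeq windows were found for 8 of the 9 members, with 3 for *Phc2*, and none was held for *Cbx2*. All 3 printed windows hold CACGTG once, beginning at position -215 from the start in *Bmi1*, -137 in *Pcgf2* and -98 in *Cbx8*. A window of *Phc2* also holds it, which makes 4 of 8 members, beside 7.15% of all 32851 RefSeq windows. For every motif a member counts if any of its windows holds it, while the share is per window, so the units differ. The GC box GGGCGG, searched like the others on both strands, is in 7 of 8 members against 35.7% of windows, and in *Cbx8* it directly follows the E-box without overlap. CCAAT is in 3 of 8 members (37.4% of windows), and TTCGCGC (written here for E2F) and GCATGCG (for NRF1) are in 0 of 8 (1.59% and 3.58%). CpG dinucleotides, where PRC2 and PRC1 are known to gather in islands, number 23 in *Bmi1*, 24 in *Cbx8* and 10 in *Pcgf2*, with a median of 7 over all windows. The richest members are a downstream start of *Phc2* with 45, *Ring1* with 37 and *Cbx7* with 33. These letters are a description of the windows and no evidence that a factor binds there.

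The largest embryonic change among the 9 members was in *Bmi1*, whose protein partners RNF2 in the ligase and which is known for keeping stem cells from senescence. It rose in *Eed* KO mesenchyme of both organs. The stomach had 123 and 120 CPM in the control libraries and 304 and 252 CPM in the *Eed* KO libraries, and the intestine 101 and 97.9 CPM and 268 and 236 CPM. In both organs every *Eed* KO library lay more than 100 CPM above every control. In the stomach this was a 2.29-fold rise (log2 fold change 1.20, SE 0.12, adjusted p = 0.00164 by edgeR) and in the intestine a 2.54-fold rise (1.34, SE 0.12, adjusted p = 0.0026). The difference of these effects between organs was 0.15 (SE 0.16) and did not pass the test (adjusted p = 1.0). *Bmi1* was still called without any 1 library of either comparison, with log2 fold changes of 1.05 to 1.32 (stomach) and 1.25 to 1.43 (intestine). The gene lies at chr2:18677018-18686629 on the plus strand, and *Commd3*, which ends less than 1 kb upstream on the same strand at 18676231, changed by 0.25 (SE 0.12, adjusted p = 0.272) and 0.29 (SE 0.12, adjusted p = 0.34).

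**Figure D1:**
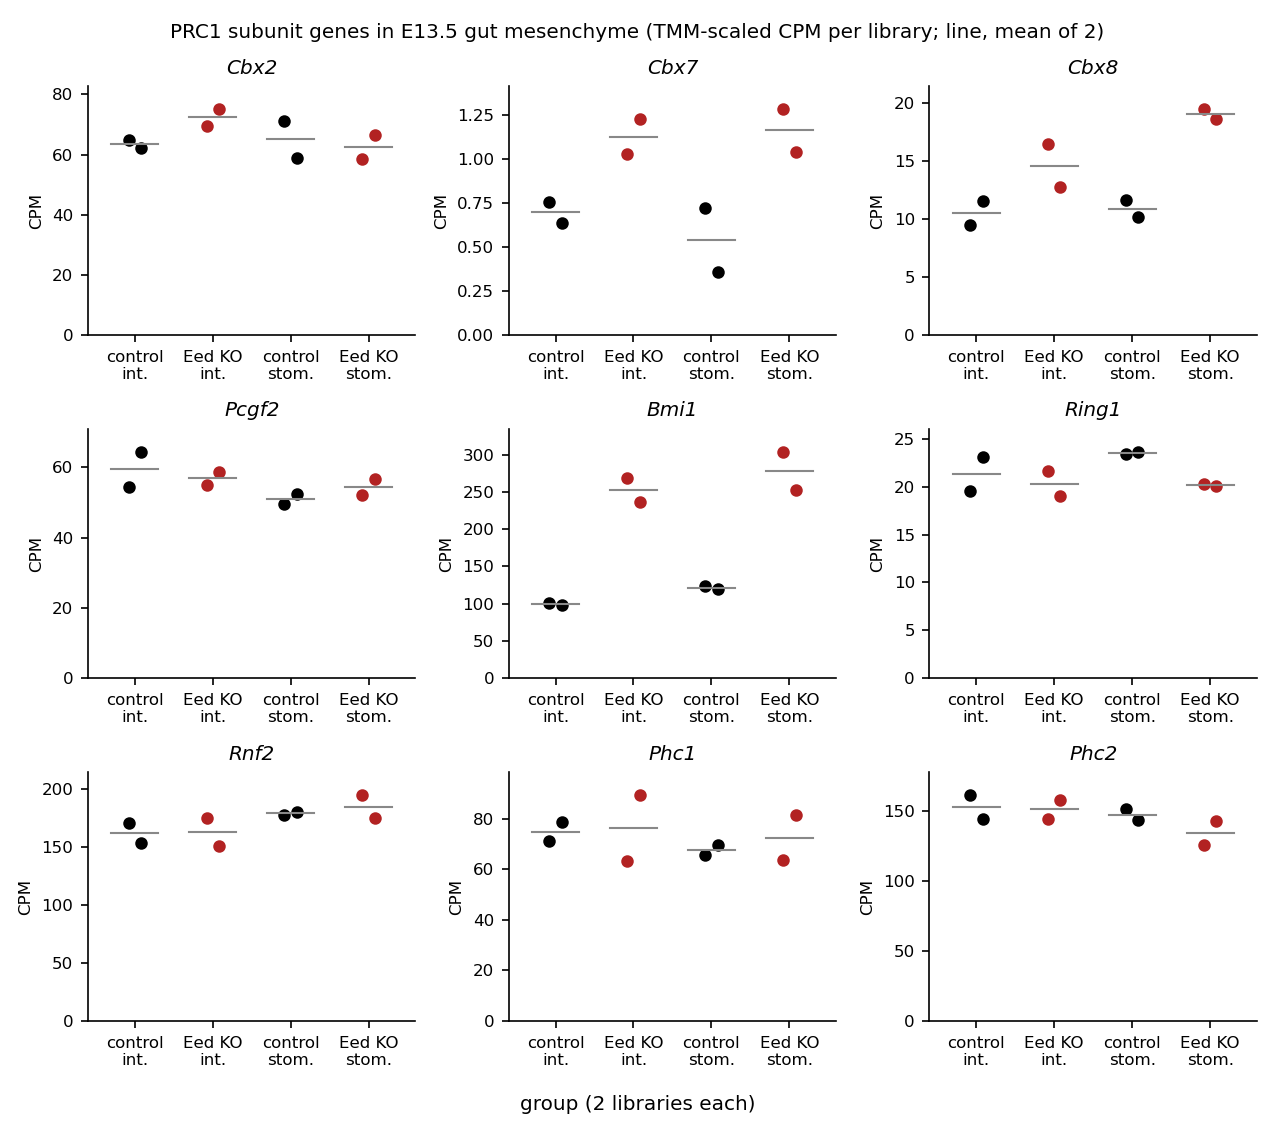
TMM-scaled CPM (vertical axis, from 0) of each PRC1 subunit gene in the 8 embryonic libraries, by group (horizontal axis); points are libraries, black for control and red for *Eed* KO, and the grey line is the mean of 2. The *Eed* KO libraries of *Bmi1* lie between 236 and 304 CPM and its controls between 97.9 and 123 CPM, while the points of *Rnf2*, *Phc1* and *Pcgf2* overlap between genotypes in both organs.

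*Pcgf2* (also Mel18), the alternative partner of the ligase at the position of BMI1, did not follow it. It had 49.5 and 52.3 CPM in control and 52.0 and 56.8 CPM in *Eed* KO stomach, and 54.3 and 64.4 CPM in control and 55.0 and 58.7 CPM in *Eed* KO intestine. The groups overlapped in both organs, and its log2 fold changes were 0.09 (SE 0.12, adjusted p = 0.672) and -0.06 (SE 0.12, adjusted p = 0.92). Per length, in TPM (transcripts scaled to a common library total), *Bmi1* made up 68.8% and 67.1% of the summed *Bmi1* and *Pcgf2* level in the control stomach libraries, and 83.9% and 79.8% in *Eed* KO stomach. In the intestine its share was 62.3% and 57.4% in control and 81.3% and 78.1% in *Eed* KO. The sum of both genes was 136 to 137 TPM in control and 260 to 287 TPM in *Eed* KO stomach, and 120 to 131 TPM and 237 to 246 TPM in the intestine. The share is a ratio within each library, which no scaling of the libraries alters.

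*Cbx8*, one of the readers of H3K27me3, was the other member that rose. In the stomach it had 11.6 and 10.2 CPM in control and 19.6 and 18.6 CPM in *Eed* KO, a 1.75-fold difference (log2 fold change 0.81, SE 0.17, adjusted p = 0.0304). In the intestine it had 9.47 and 11.6 CPM in control and 16.5 and 12.8 CPM in *Eed* KO, which did not overlap but did not pass the test (0.48, SE 0.17, adjusted p = 0.244). The effects of the 2 organs were not shown to differ (difference -0.33, SE 0.24, adjusted p = 1.0). The stomach call was lost without any 1 of the 4 stomach libraries, with adjusted p from 0.109 to 0.19 and log2 fold changes from 0.72 to 0.90.

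The remaining CBX readers were far apart in level. *Cbx7*, a reader prominent in self-renewing stem cells, was barely expressed, with 25 and 14 counts in the control and 48 and 38 in the *Eed* KO stomach libraries. Its intestinal libraries held 27 and 19 counts for controls and 39 and 43 for *Eed* KO. Its *Eed* KO libraries were above the controls in both organs, but at log2 fold changes of 1.12 (SE 0.38, adjusted p = 0.132) and 0.68 (SE 0.38, adjusted p = 0.522) neither passed the test, and the counting error at this depth is large. *Cbx2*, a reader with a strong compacting activity that is known for skeletal patterning and gonad development, had 58.6 to 71.1 CPM over the 4 stomach libraries with overlapping groups (-0.06, SE 0.12, adjusted p = 0.822). In the intestine it had 64.9 and 62.3 CPM in control and 69.4 and 75.3 CPM in *Eed* KO (0.19, SE 0.12, adjusted p = 0.625). *Cbx2* lies less than 10 kb from *Cbx8* on chromosome 11.

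The RING ligases gave small differences. *Rnf2* (RING1B), which carries most of the H2AK119 ligase activity in mouse embryos, had 178 and 180 CPM in control and 195 and 174 CPM in *Eed* KO stomach, and 170 and 153 CPM and 175 and 150 CPM in the intestine, with overlap in both. Its log2 fold changes were 0.05 (SE 0.11, adjusted p = 0.847) and 0.01 (SE 0.11, adjusted p = 0.992). *Ring1*, its paralog, had 23.4 and 23.7 CPM in control and 20.3 and 20.1 CPM in *Eed* KO stomach, 4 values that did not overlap at a log2 fold change of -0.22 (SE 0.12, adjusted p = 0.342). In the intestine its libraries overlapped between 19.0 and 23.1 CPM (-0.07, SE 0.12, adjusted p = 0.923). *Ring1* held 11.7% to 16.1% of the summed TPM of the pair over all 8 embryonic libraries.

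The PHC proteins, which polymerise through their SAM domain and cluster PRC1, were also close between genotypes. *Phc1* had 63.5 and 81.5 CPM in *Eed* KO stomach against 65.8 and 69.5 CPM in control (0.10, SE 0.18, adjusted p = 0.791), and 63.3 and 89.5 CPM in *Eed* KO intestine against 71.0 and 78.7 CPM in control (0.03, SE 0.18, adjusted p = 0.979). In both organs the *Eed* KO libraries were the more spread and enclosed the controls. *Phc2* had 126 and 143 CPM in *Eed* KO and 152 and 144 CPM in control stomach (-0.14, SE 0.11, adjusted p = 0.492), and overlapping libraries from 144 to 162 CPM in the intestine (-0.02, SE 0.11, adjusted p = 0.976).

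In all, 2 of 9 members were called higher and 0 lower in *Eed* KO stomach (adjusted p under 0.05 by edgeR; DESeq2 gave the same counts), where 5.96% of the 16218 genes tested were called higher and 1.95% lower. In *Eed* KO intestine 1 of 9 was called higher and 0 lower, against 2.66% and 0.407% of genes, and DESeq2 again gave the same counts. All 9 passed the filter on low counts. Counted at an unadjusted p under 0.05, the stomach had 3 members and the intestine 2, beside 3668 and 2274 of the 16218 genes tested. *Bmi1* alone also exceeded a log2 fold change of 1 among the called members, beside 4.84% (stomach) and 2.38% (intestine) of all genes tested that were called higher and exceeded it. The members had a median log2 fold change of 0.09 (stomach) and 0.03 (intestine), with 0.00 and 0.01 over all genes. The *Eed* KO libraries lay above the controls for 3 members and below for 2 in the stomach (27.7% and 27.3% of all genes), and for 4 and 0 in the intestine (21.8% and 16.4%). Spike-in RNA took 0.0720% to 0.110% of the counts in control and 0.0134% to 0.0403% in *Eed* KO embryonic libraries. Scaled to it, the median gene moved by 2.39 in the stomach and 1.85 in the intestine on the log2 scale, and all 9 members were called higher in both organs. Relative to that shift *Bmi1* stood at 1.15 and 1.30 and *Cbx8* at 0.80 and 0.41, so that the values in the text are changes relative to the typical gene. Endothelial markers moved in the same libraries, with 4 of 6 called higher in the stomach (summed level 14.9 to 15.3 CPM in control, 25.1 to 45.9 CPM in *Eed* KO) and 3 of 6 in the intestine (15.4 to 20.2 CPM, and 49.5 CPM in both *Eed* KO libraries), and none of the 6 was at 0 in an *Eed* KO library. In the stomach the summed proliferation markers were 1436 to 1600 CPM in control and 1120 to 1310 CPM in *Eed* KO, with 3 of 8 called lower, and the smooth muscle markers 2853 to 2970 CPM and 1820 to 2059 CPM, with 0 of 6 called. The part of these lists in the rise of *Bmi1* and *Cbx8* was not tested.

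**Figure D2:**
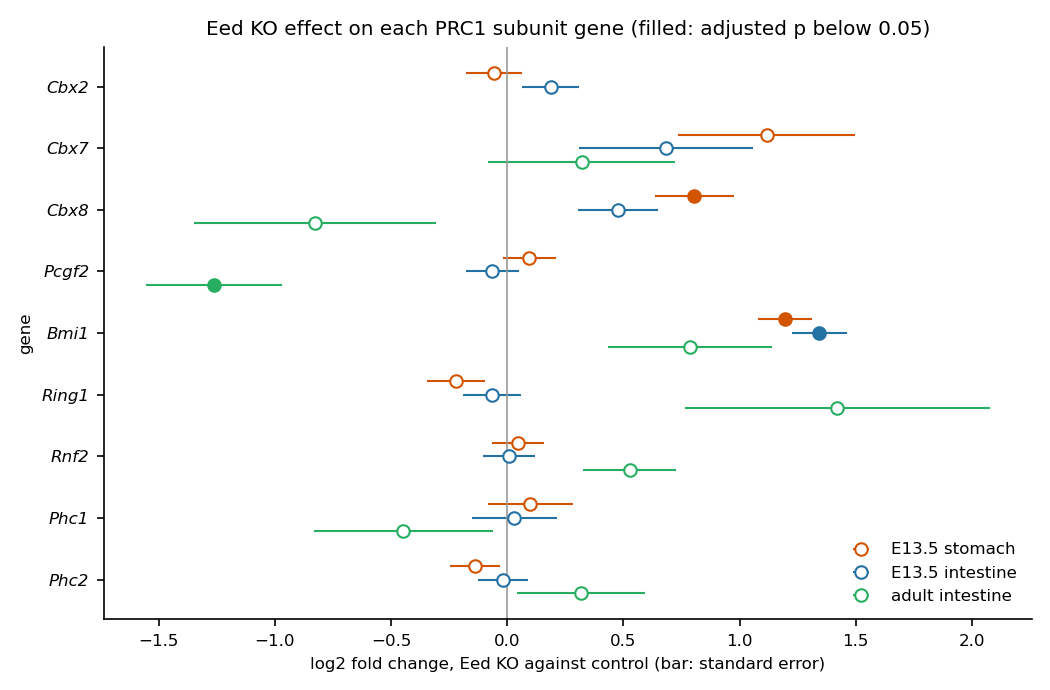
Log2 fold change of *Eed* KO against control (horizontal axis) for each PRC1 subunit gene (vertical axis) in E13.5 stomach, E13.5 intestine and adult intestine; bars are standard errors and filled points passed the test. *Bmi1* stands at 1.20 and 1.34 in the embryonic organs and *Pcgf2* at -1.26 in the adult; *Cbx2* was not tested in the adult.

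Between the organs of control embryos no member was called by edgeR or DESeq2 without a replicate block. Among all genes, 2.4% were called higher in the intestine and 4.43% lower. At an unadjusted p under 0.05 there was 1 member, beside 2851 of the 16218 genes tested. That member was *Bmi1*, with a log2 difference of -0.29 (SE 0.12, adjusted p = 0.246 by edgeR). Under spike-in scaling, which moved the median gene by 0.30, it was at -0.28 relative to the typical gene. With a replicate block by embryo pool, which takes equal replicate numbers to share embryos, *Bmi1* was the 1 member called, lower in the intestine. *Pcgf2* leaned the other way (0.22, SE 0.12, adjusted p = 0.408), and *Cbx7* had the highest value with the widest error (0.39, SE 0.40, adjusted p = 0.77). The others were within 0.15 of 0 in either direction, with *Phc1* at 0.15, *Phc2* at 0.05, *Cbx2* at -0.03, *Cbx8* at -0.05, *Ring1* at -0.15 and *Rnf2* at -0.15, and *Eed* was at -0.06. The intestinal libraries lay above the gastric ones for 2 members and below for 3, beside 24.5% and 26.7% of all genes. The effect of *Eed* loss differed between organs for 0 of 9 members at an adjusted p under 0.2 by edgeR or DESeq2. Of all genes, 0.21% were called with a higher effect in the intestine and 0.302% with a lower one. At an unadjusted p under 0.05 there were 0 members, beside 954 of the 16218 genes tested. The 9 differences ran from -0.43 (*Cbx7*, SE 0.53) to 0.24 (*Cbx2*, SE 0.17). Besides *Bmi1* and *Cbx8*, given above, *Ring1* had 0.15, *Phc2* 0.12, *Rnf2* -0.04, *Phc1* -0.07 and *Pcgf2* -0.16, and *Eed* had 0.10.

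Across genes, levels are compared in TPM. In the control intestine the order of mean levels was *Rnf2* (117 TPM), *Bmi1* (74.9), *Phc2* (64.9), *Pcgf2* (50.5), *Cbx2* (44.7), *Phc1* (42.4), *Ring1* (19.7), *Cbx8* (8.59) and *Cbx7* (0.322). All neighbours in this order were apart in both libraries except *Cbx2* and *Phc1*, which overlapped. The control stomach gave 132 TPM for *Rnf2* and 92.8 for *Bmi1* at the top and the same lower end, with *Cbx2* (46.4) and *Pcgf2* (43.8) overlapping. In *Eed* KO, *Bmi1* passed *Rnf2* as the most abundant member, at 185 to 200 against 113 to 125 TPM in the intestine and 207 to 240 against 138 to 148 TPM in the stomach, with no overlap of libraries in either organ.

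**Figure D3:**
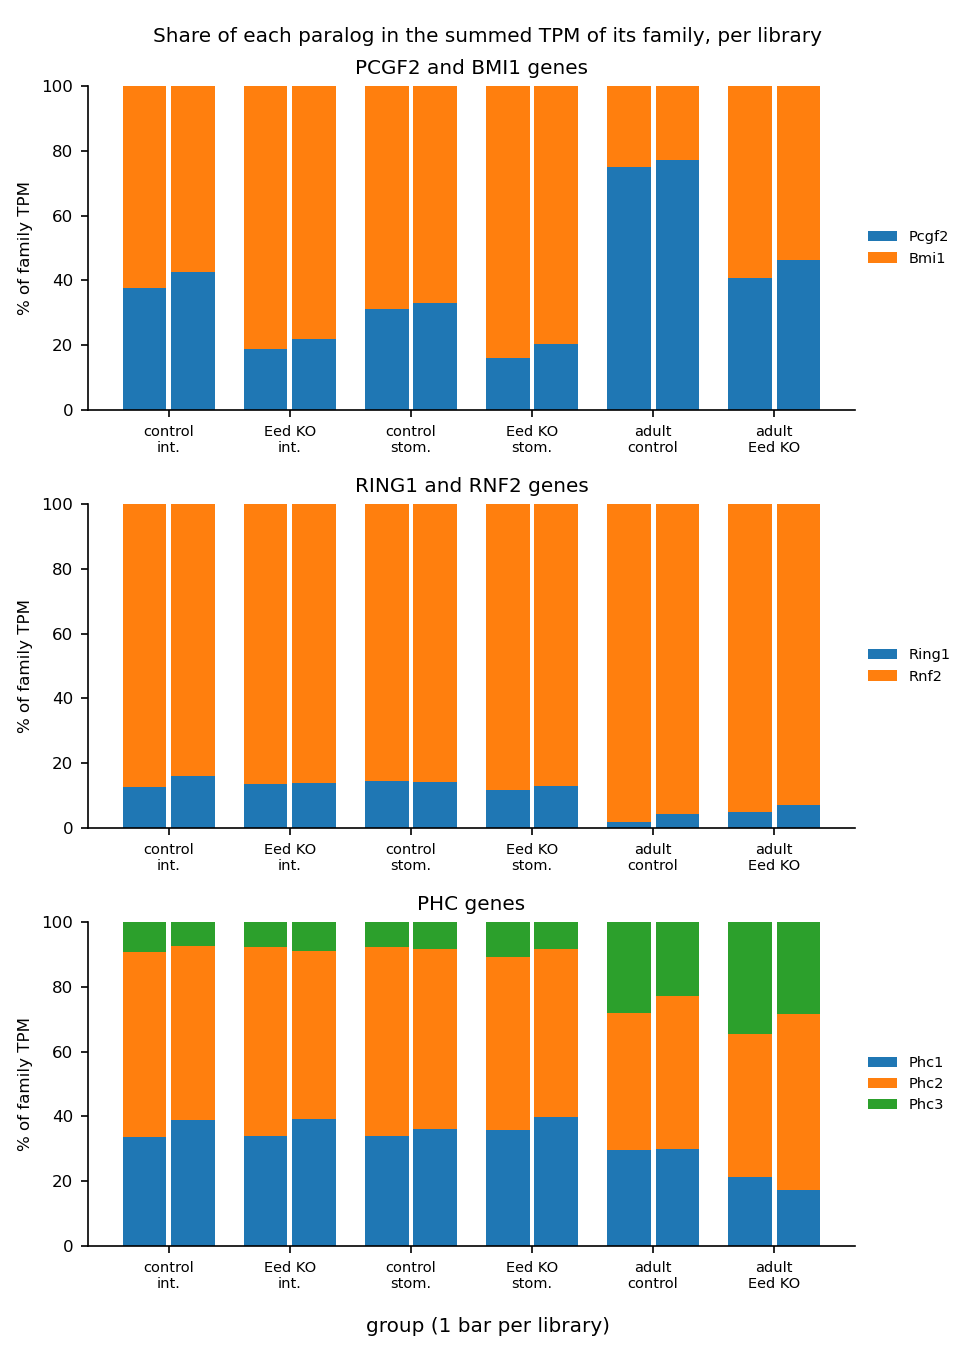
Share (%, vertical axis) of each paralog in the summed TPM of its family in each of the 12 libraries (horizontal axis, 1 bar per library, by group), for the PCGF2 and BMI1, RING1 and RNF2, and PHC genes. *Bmi1* takes 57.4% to 68.8% of its pair in embryonic controls, 78.1% to 83.9% in embryonic *Eed* KO, 22.8% to 25.0% in adult controls and 53.8% to 59.3% in adult *Eed* KO.

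In the libraries sorted from adult intestine the PCGF genes differed in another way. Cell type markers differed with genotype in the same libraries. The macrophage and leukocyte markers summed to 609 to 692 CPM in control and 12860 to 13413 CPM in *Eed* KO. A change within mesenchymal cells and a change of cell make-up therefore cannot be told apart here. *Pcgf2* fell, from 16.4 and 14.5 CPM in the control libraries to 6.22 and 6.65 CPM in the *Eed* KO libraries, with no overlap. The log2 fold change was -1.26 (SE 0.29, adjusted p = 0.0221 by edgeR), which is 0.417 of the control level. It lost the call without control replicate 1 (-1.18, adjusted p = 0.0971) and without *Eed* KO replicate 2 (-1.32, adjusted p = 0.0521), and also with 1 RUVg factor estimated from the spike-ins (-1.33, adjusted p = 0.0513). *Bmi1* had 6.15 and 4.83 CPM in control and 10.2 and 8.74 CPM in *Eed* KO, above in both libraries but short of the test (0.79, SE 0.35, adjusted p = 0.155), and in TPM its groups overlapped (3.08 to 4.02 in control, 3.62 to 4.72 in *Eed* KO). The share of *Bmi1* in the pair rested on both genes, at 25.0% and 22.8% in the adult controls and 59.3% and 53.8% in the adult *Eed* KO libraries. No direct test was made between embryonic and adult libraries, which differ in age, Cre, kit and strandedness.

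**Figure D4:**
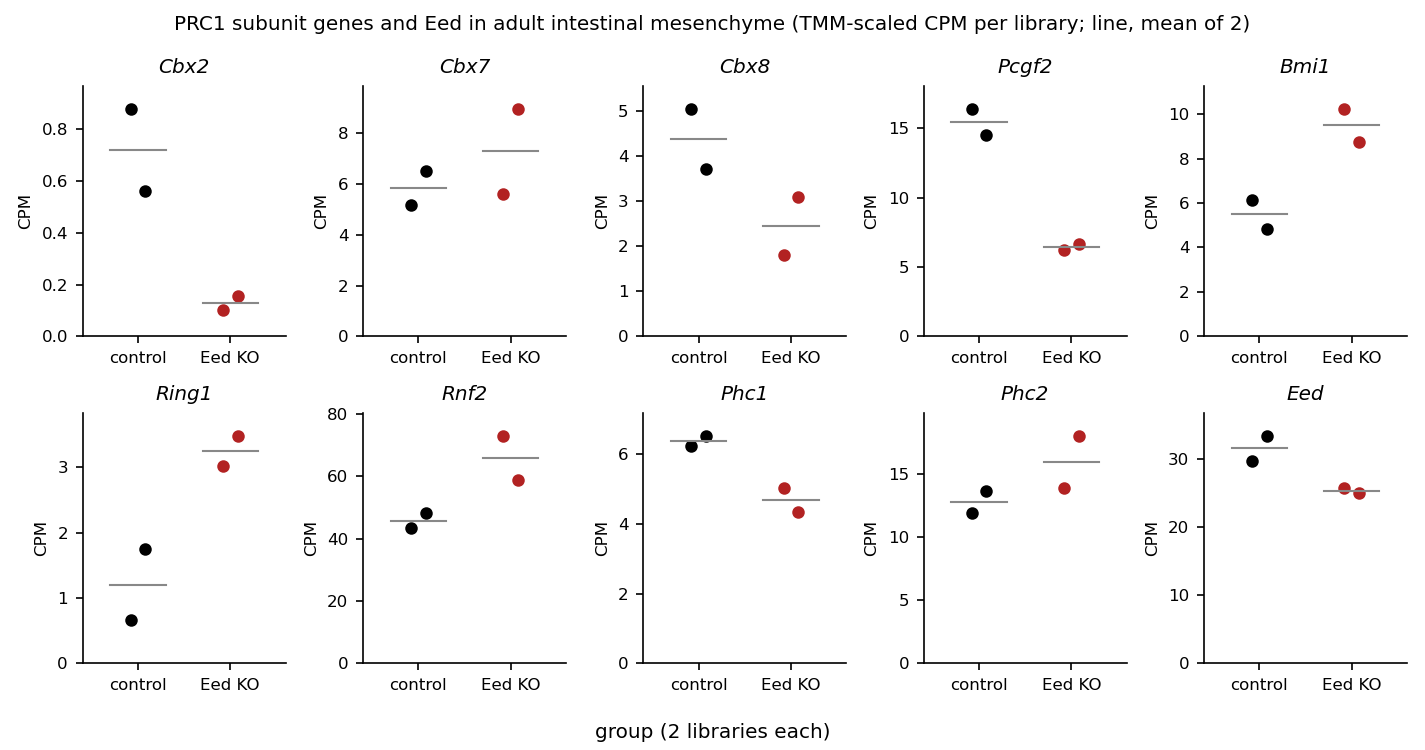
TMM-scaled CPM (vertical axis, from 0) of the PRC1 subunit genes and of *Eed* in the 4 adult libraries, by group (horizontal axis); points are libraries and the grey line is the mean of 2. *Pcgf2* is at 14.5 and 16.4 CPM in control and 6.22 and 6.65 CPM in *Eed* KO, and *Eed* itself at 29.7 and 33.4 CPM against 25.0 and 25.7 CPM.

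The other adult members did not pass the test. *Cbx8* had 5.05 and 3.71 CPM in control and 1.81 and 3.09 CPM in *Eed* KO (-0.83, SE 0.52, adjusted p = 0.295). *Ring1* had 9 and 25 counts in control and 30 and 45 counts in *Eed* KO (1.42, SE 0.66, adjusted p = 0.166), where few counts made the error wide. *Rnf2* stayed the most abundant member, at 43.4 and 48.1 CPM in control and 73.0 and 58.9 CPM in *Eed* KO (0.53, SE 0.20, adjusted p = 0.103), and 158 of its exon bases overlap *Trmt1l* on the opposite strand, which unstranded reads do not separate. *Cbx7* (0.32, SE 0.40, adjusted p = 0.608; 100 bases overlap *Apobec3*) had overlapping libraries, and *Phc1* (-0.45, SE 0.39, adjusted p = 0.444) and *Phc2* (0.32, SE 0.28, adjusted p = 0.449) did not overlap. *Cbx2* was read 12 and 8 times in the controls against 1 and 2 times with *Eed* deleted, did not pass the filter on low counts and was not tested. The ratio of its share of all counts in *Eed* KO to that in control was 0.13, with a 95% exact interval for counting error alone of 0.0247 to 0.437. This ratio uses library totals without TMM, unlike the fold changes above, and is lower than on the TMM scale. In TMM-scaled CPM the means were 0.719 in control and 0.127 in *Eed* KO.

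Over the adult comparison, 1 of the 8 members tested was called lower and 0 higher by edgeR, as by DESeq2, where 9.39% of the 15039 genes tested were called lower and 14.1% higher. The one member also passed a log2 fold change of 1 in size, as 7.23% of genes did in the lower direction. At an unadjusted p under 0.05 there were 2 members, beside 5558 of the 15039 genes tested. The *Eed* KO libraries lay above the controls for 4 members and below for 3 in TMM-scaled CPM, beside 32.3% and 33% of all genes. In TPM *Bmi1* and *Rnf2* overlapped between the groups and *Phc2* lay below the controls. Cell type markers in the adult libraries moved with genotype. The 6 macrophage and leukocyte markers summed to 609 to 692 CPM in control and 12860 to 13413 CPM in *Eed* KO, with 6 of 6 tested called higher and none at 0. The 8 mesenchyme markers summed to 11332 to 11856 CPM and 3441 to 4957 CPM, with 4 of 6 tested called lower and 1 of the 8 at 0. Smooth muscle markers summed to 1820 to 2257 CPM in control and 3149 to 3707 CPM in *Eed* KO (4 of 6 called higher), and 2 of 6 endothelial, 2 of 8 proliferation and 3 of 8 immediate early markers were called higher. The part of these lists in the fall of *Pcgf2* was not tested.

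Other genes of PRC1 and of the H2AK119ub cycle were counted from lists. Their counts are to be read beside the shares of all genes called, and the numbers at an unadjusted p under 0.05, given above for each comparison. Of 22 other PRC1 genes, such as those of variant complexes, 0 were called in either direction in the stomach or the intestine by edgeR or DESeq2, with 4 and 0 at an unadjusted p under 0.05. In the adult 1 of 22 was called lower, *E2f6*, which recruits a variant complex to germline genes (-2.16, SE 0.57, adjusted p = 0.0347, from 4.32 to 0.954 CPM on average). A list of 9 genes was made for removal or reading of H2AK119ub. It also holds *Zrsr2*, which encodes a splicing factor, does neither and was not called. Of the 9, 0 were called in either embryonic organ by edgeR or DESeq2 (0 and 1 at an unadjusted p under 0.05). In the adult 1 of 8 tested was called higher, *Jarid2*, a PRC2 partner that binds H2AK119ub (0.76, SE 0.22, adjusted p = 0.0449 by edgeR). In that comparison 9.39% of all genes were called lower and 14.1% higher. Neither list had a gene called between control organs or for the organ difference by edgeR or DESeq2, with 2 genes at an unadjusted p under 0.05, both other PRC1 genes between the organs.

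Accessibility was read from the 4 embryonic peak lists, which hold 103808 to 119181 peaks and give for each a fold enrichment over local background and a -log10 q, with no replicate. Within 1000 bp of the outermost annotated start, 8 of 9 members had a peak in every list, and 88.0% to 89.1% of all genes tested did. The exception was *Cbx7*, whose outermost start at chr15:79971119 had none in any list, but whose RefSeq start at 79932646 had a peak in all 4, such as chr15:79932374-79932981 in the control intestine. Its fold enrichment was 4.94 and 3.96 in control and *Eed* KO intestine and 4.18 and 3.67 in control and *Eed* KO stomach.

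The promoter peak of *Bmi1* was already there in the controls. It spanned chr2:18676439-18677889 in control stomach and chr2:18676502-18677882 in *Eed* KO stomach, with fold enrichments of 3.85 and 3.99, and chr2:18676415-18677885 and chr2:18676472-18677969 in the intestine, with 3.94 and 3.60. All 4 peaks cover the whole printed window, E-box included. The log2 ratio of *Eed* KO to control, 0.05 for stomach and -0.13 for intestine, lay within the 5th to 95th percentile of all genes (-0.29 to 0.26 and -0.38 to 0.21). *Cbx8*, whose RNA rose in the stomach, had a promoter peak of lower fold enrichment there, 4.77 in *Eed* KO against 6.97 in control, a log2 ratio of -0.55 below the 5th percentile. In the intestine it had 5.89 against 7.07 (-0.26), between these percentiles. The stomach peak was 1026 bp wide in control and 1450 bp in *Eed* KO, and a broad peak is given 1 enrichment for its whole width, so that a lower height and a wider call cannot be told apart.

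**Figure D5:**
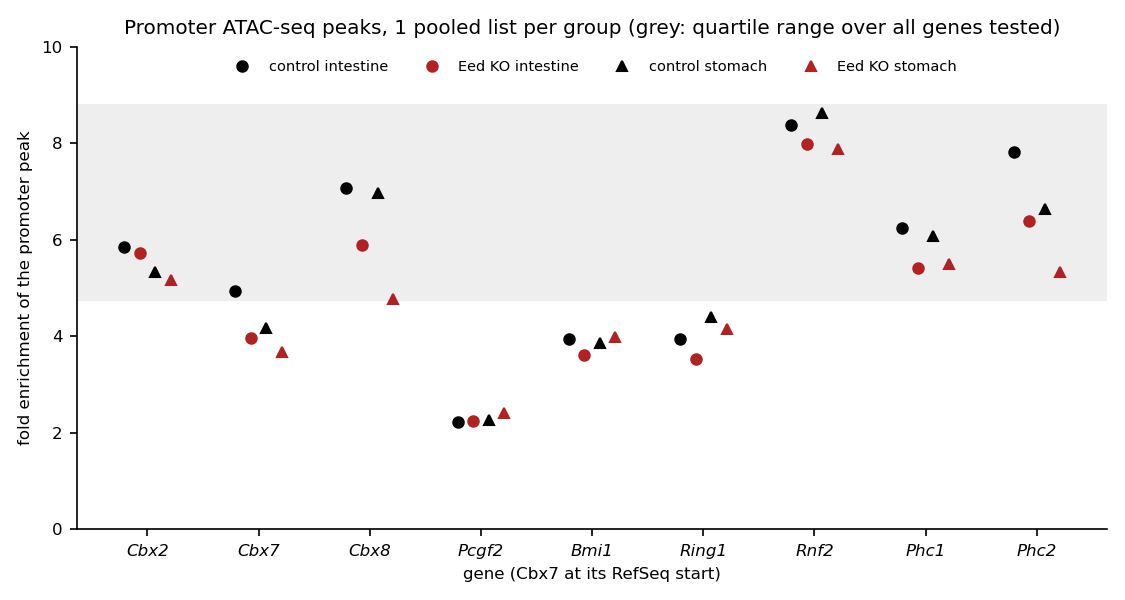
Fold enrichment (vertical axis) of the promoter ATAC-seq peak of each PRC1 subunit gene (horizontal axis, *Cbx7* at its RefSeq start) in the 4 pooled peak lists; circles are intestine and triangles stomach, black control and red *Eed* KO, and the grey band spans the lower to upper quartiles of all genes tested, lowest to highest over the lists. *Pcgf2* is lowest, at 2.23 to 2.41, and *Rnf2* highest, at 7.88 to 8.64.

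*Pcgf2* had the weakest promoter peaks of the members, with fold enrichments of 2.23 and 2.24 in control and *Eed* KO intestine and 2.26 and 2.41 in the stomach, above only 0.154% to 0.513% of the promoter peaks in a list. These peaks also cover its RefSeq start at chr11:97699648, which lies inside the gene from the outermost one. *Rnf2* had the strongest, from 7.88 to 8.64, above 65.8% to 73.7% of promoter peaks. *Ring1* (3.53 to 4.39) was near *Bmi1*, and *Cbx2* (5.16 to 5.86), *Phc1* (5.42 to 6.24) and *Phc2* (5.33 to 7.82) lay between. *Phc2* had a lower enrichment in *Eed* KO than in control in both organs (6.39 against 7.82, and 5.33 against 6.65), with a stomach log2 ratio of -0.32 below the 5th percentile of all genes. Its stomach peak was 970 bp wide in control and 1424 bp in *Eed* KO, so that a lower height and a wider call cannot be told apart there. The intestinal peaks were 1440 bp and 1428 bp wide.

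The genes whose levels ran most like the 3 members of widest range were listed over the 8 embryonic libraries, among 13378 genes of at least 1 CPM on average. For *Bmi1* they were *Nr6a1*, *Il17ra* and *Nrn1*, with Pearson correlations of log2 CPM of 0.987, 0.985 and 0.984. For *Cbx7* they were *Slc38a6* (0.973), *Xndc1* (0.966) and *2610015P09Rik* (0.964), and for *Cbx8* *H2-T23* (0.98), *4933439C10Rik* (0.977) and *Fkbp11* (0.975). These are highest values out of many, over libraries that share their genotype groups, and are given as a description.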

How the data were processed

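RNA-seq counts per gene were deposited unnormalized. The authors trimmed reads with Trimmomatic, aligned them to GRCm38/mm10 with STAR and counted genes of GENCODE vM4 with featureCounts, stranded in embryonic and unstranded in adult libraries. For ATAC-seq the authors pooled replicates and called broad peaks with MACS2, and each deposited peak has a fold enrichment (a ratio) and a -log10 q.

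Counts were tested with the quasi-likelihood test of edgeR 4.0.16 in R 4.3.3 after TMM scaling and filterByExpr, with Benjamini-Hochberg adjustment over all genes tested, in 1 embryonic fit of 8 libraries in 4 groups and 1 adult fit of 4 libraries in 2 groups. Called means an adjusted p under 0.05, and under 0.2 for the organ difference. TPM used the exon length in the adult files, for both stages, with no test. A promoter peak overlaps 1000 bp either side of the start. Coordinates are mm10 and sequences RefSeq GRCm38.p6. Scripts were tested on simulated data. DESeq2 1.42.0, RLE and spike-in scaling, an RUVg factor from spike-ins, no filter, replicate blocks, fewer libraries and other peak settings were tried.

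Named were all 9 members and *Eed* in every comparison, except *Cbx2* where it was not tested, list genes by smallest adjusted p among those called, and genes of highest correlation. *Commd3* and overlapping genes were added after values were seen. One gene of the list of other PRC1 genes is not reported here, nor are shares within the CBX genes. The members and lists were chosen with earlier results of these data known. Replicates are separate samples per the labels, and the p-values measure the spread between them. Intervals cover counting error only.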

Additional observations from a re-analysis of the deposited data

Results flagged for a closer look

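Groups of 2 are too small to look for a library that stands apart. *Cbx8*, *Ring1* and *Phc2* came up because every *Eed* KO library lay on one side of the controls in an embryonic organ and on the other side in the adult. The difference was not tested, since the stages were fitted apart. For *Cbx8* the log2 fold changes were 0.81 (stomach), 0.48 (intestine) and -0.83 (adult). *Ring1* had -0.22 in the stomach and 1.42 in the adult, and *Phc2* -0.14 in the stomach and 0.32 in the adult. Of these log2 fold changes only the stomach value of *Cbx8* passed its own test. The sides were read in TMM-scaled CPM. In TPM the adult *Eed* KO libraries of *Phc2* lay below the controls instead (4.39 and 4.89 in control, 3.59 and 4.20 in *Eed* KO). Among all genes tested at both stages, 18.7% lay on opposite sides in stomach and adult, and 11.1% in intestine and adult.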

How the results depend on the processing

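*Bmi1* kept its call in both embryonic organs in every other tool, filter, scaling and block tried and without any 1 library (log2 fold change, spike-in scaling aside, 1.05 to 1.52 in the stomach and 1.25 to 1.59 in the intestine). The stomach call of *Cbx8* held in all but the leave-one-out fits, and the adult call of *Pcgf2* was lost with 1 RUVg factor (0 members called, 2224 genes) and in 2 of 4 leave-one-out fits. The cause was not tested. Promoter peaks were found for 8 members with a narrower or wider window or a stricter -log10 q. With RefSeq starts the number was also 8, but with *Cbx7* among them and without *Cbx2*, which had no RefSeq start to check. Where few counts limit precision, as for *Cbx7* in the embryo and *Ring1* and *Cbx2* in the adult, errors stay wide.

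Main counts of genes called were 1283 (stomach), 497 (intestine), 1107 (control organs), 83 (organ difference) and 3530 (adult). Scaling to spike-ins gave 15438, 13688, 155 and 20 genes in the first 4, with 9 members in both *Eed* KO comparisons, and 1 RUVg factor gave 578 in the stomach and 253 for the organ difference. DESeq2 gave 941 in the intestine and 269 for the organ difference, no filter 1033 and 298, and only the 4 libraries compared 253 in the intestine. Without 1 library the counts were 367 to 742 (stomach, members 1 to 1), 74 to 392 (intestine), 394 to 538 (organs), 27 to 108 (organ difference) and 2424 to 3522 (adult, members 0 to 1).

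The paper separated stomach and intestine of each animal, but nothing states that equal replicate numbers share animals, so the main fits were unpaired. Same-numbered libraries correlated in their deviations at 0.628 (*Eed* KO intestine and stomach) and 0.265 (control intestine and stomach), at 0.047 to 0.151 for other embryonic pairs and at -0.06 in the adult. With a replicate block 2474, 923, 1728 and 284 genes were called in the embryonic comparisons in the order above. With a replicate block by embryo pool 2595 genes were called between control organs, *Bmi1* among them as 1 member (-0.29, adjusted p = 0.0135), and 1016 for the organ difference. The block changed no other call of a member.

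Signs turned for values that passed no test in the main fit. Spike-in scaling moves the median gene (2.39 stomach, 1.85 intestine, 0.30 organs, -0.53 organ difference, -0.42 adult), and of the 17 values that turned under it 16 kept their sign relative to that shift, all but *Phc2* in the intestine (0.0027). Unadjusted for it they were, in the stomach, *Cbx2* 2.39, *Ring1* 2.17 and *Phc2* 2.30, in the intestine *Pcgf2* 1.82, *Ring1* 1.76 and *Phc2* 1.85, between control organs *Cbx2* 0.28, *Cbx8* 0.24, *Bmi1* 0.012, *Ring1* 0.14 and *Rnf2* 0.16, for the organ difference *Cbx2* -0.33, *Bmi1* -0.38, *Ring1* -0.41 and *Phc2* -0.44, and in the adult *Cbx7* -0.17 and *Phc2* -0.15. With 1 RUVg factor they were *Pcgf2* -0.031 and *Phc1* -0.55 (stomach), *Ring1* 0.091 and *Phc1* -0.48 (intestine), *Cbx8* 0.013 (organs) and *Phc1* 0.064 (organ difference). Leave-one-out ranges that crossed 0 were, in the stomach, *Cbx2* -0.18 to 0.080, *Rnf2* -0.038 to 0.12 and *Phc1* -0.094 to 0.27, and in the intestine *Pcgf2* -0.19 to 0.061, *Ring1* -0.19 to 0.055, *Rnf2* -0.10 to 0.11, *Phc1* -0.24 to 0.26 and *Phc2* -0.10 to 0.058. Between organs they were *Cbx2* -0.16 to 0.11, *Cbx7* -0.043 to 0.97, *Cbx8* -0.20 to 0.10 and *Phc2* -0.017 to 0.14, for the organ difference *Cbx7* -1.01 to 0.0017, *Rnf2* -0.15 to 0.066 and *Phc1* -0.34 to 0.16, and in the adult *Cbx7* -0.066 to 0.59.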
